A study of Mus musculus with 2 samples.

Results

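The genes described here build the contacts and the axis of epithelial cells. They were listed with earlier results of these data known. The set was chosen by name and holds 45 genes in 6 roles: 15 claudins, 7 other tight junction genes, 5 cadherins and catenins, 7 desmosome genes, 6 polarity genes, and 5 genes of epithelial surface, traffic and splicing. All 45 were found among the 29864 genes named on the array, 44 under their current symbol and Patj under its older symbol Inadl. They are covered by 67 probes, and 14 of the genes have more than 1 probe.

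Ureters of wildtype NMRI mouse embryos, of undetermined sex, were explanted at E12.5 and kept for 18 h on transwell membranes in medium without fetal calf serum. They received either 10 µM BIO, an inhibitor of the kinase GSK3 that switches on canonical WNT signaling, or the solvent DMSO at 2 per mille as control. Pooled ureters gave the RNA, so no value belongs to 1 embryo, and the drug was given to whole explants of epithelium and mesenchyme together. RNA of both conditions was hybridised together on each of 2 Agilent arrays with the dyes exchanged: BIO RNA was red on array 1 and green on array 2. Each array is 1 replicate, and the single comparison asks how 18 h of BIO shifted the RNA of these genes in the whole explant. Between 70.1% and 80.9% of biological spots per channel were well above background, none was saturated, and 3.16% to 3.49% were left out as outliers.

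As background, epithelial cells are held together by 3 kinds of contact. Tight junctions seal the space between cells at the apical edge, and their strands are made of claudins, whose mix sets which ions pass. Adherens junctions carry E-cadherin bound to β-catenin and α-catenin, and so share β-catenin with the WNT pathway that BIO activates. Desmosomes anchor keratin filaments, and the Crumbs, PAR and Scribble modules keep the apical and basal sides of the cell apart. The epithelium of the E12.5 ureter is a simple tube that later becomes the stratified, watertight urothelium, and it lies inside a layer of mesenchyme.

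Of the 45 genes, 41 were bright enough to test and 18 changed at an adjusted p below 0.05 in limma's fit across all genes, 16 falling and 2 rising. That is 43.9% of the members tested, beside 26% of all 21574 genes tested. Falls made up 15.9% of all genes tested and rises 10.1%. The median log2 ratio of the 41 members, BIO over control, was -0.27 (-0.17 on array 1 and -0.26 on array 2), while that of all genes tested was -0.01. The members were chosen with earlier results of these data known, so these comparisons with all genes are descriptions and add no independent support. In whole explants, fewer cells of a type and less RNA per cell cannot be told apart. The ratios ran from -1.72 for Cldn8 to 0.50 for Prom1. The roles did not move as blocks: in each of them at least 1 gene fell and others were not called. The largest falls were those of 2 claudins, of the splicing factor Esrp2, of E-cadherin, of the adhesion molecule F11r and of the polarity gene Pard6b.

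**Figure D1:**
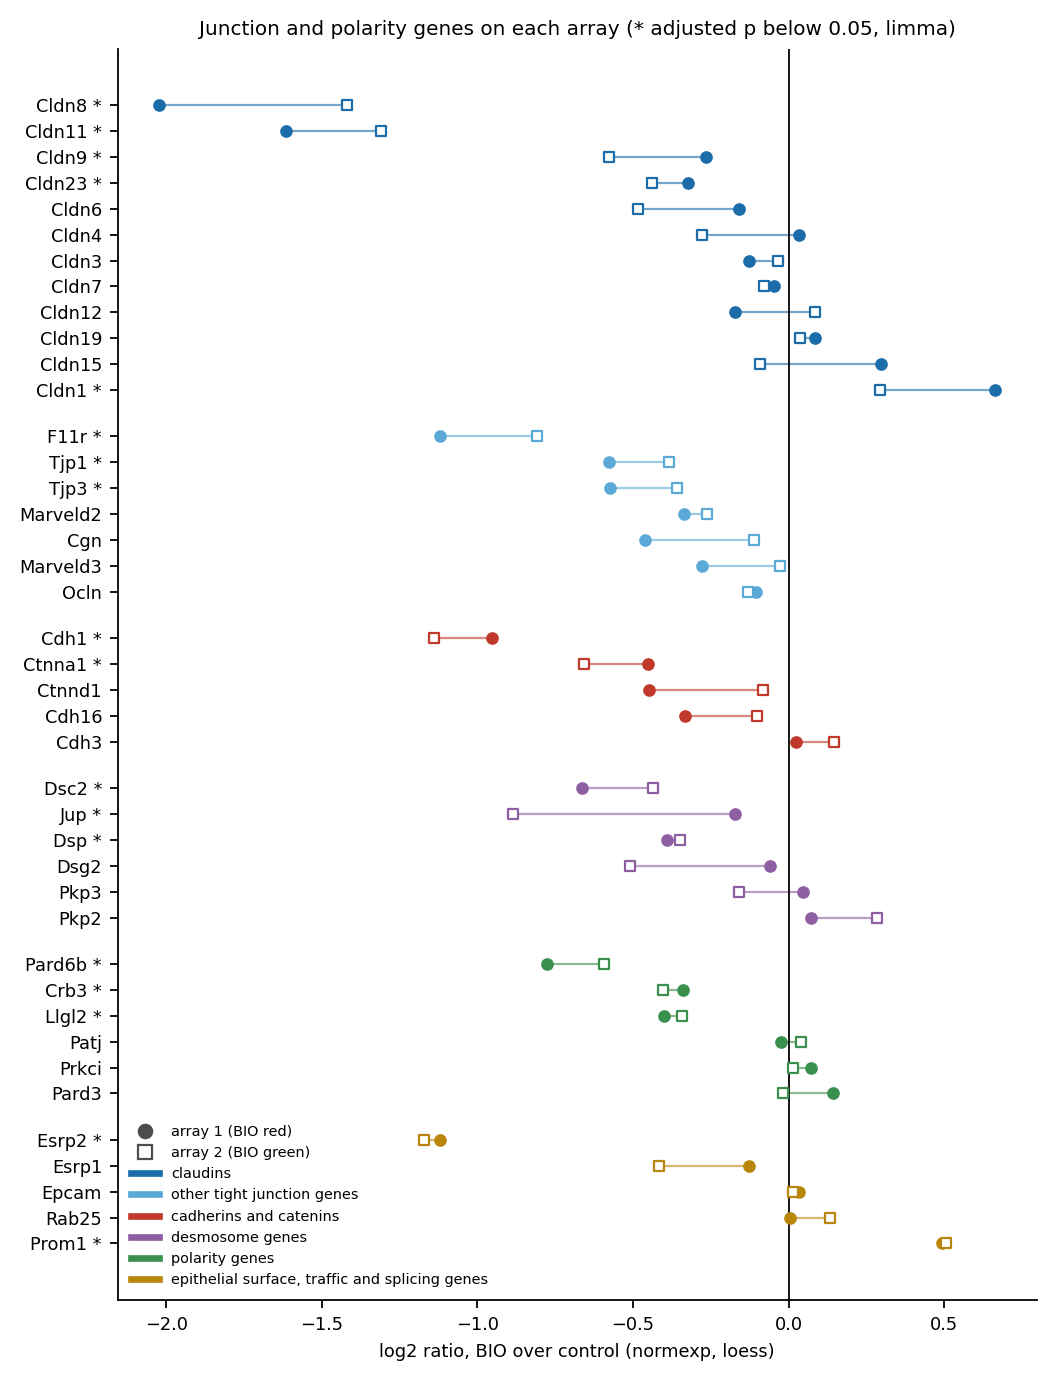
Log2 ratio of BIO over control (x axis) on array 1 (filled circles) and array 2 (open squares) for the 41 members tested, grouped by role and ordered by the mean of both arrays, with asterisks at adjusted p below 0.05 in limma. Cldn8 and Cldn11 stand farthest to the left, Cldn1 and Prom1 are the 2 genes that rose, and the members not called lie between -0.32 and 0.18 by their mean.

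The p-values rest on the spread between these 2 arrays, moderated across genes (median standard error of a member's log2 ratio 0.12). The sources number 2 pools per condition but do not state that the arrays held different RNA extracts; if they held the same ones, these errors and p-values would be technical. The calls of the smaller changes depended on how the ratios were scaled. Of the 18 calls, 7 held in each of 6 alternative ways of computing the ratio from the scanner intensities, and all 7 were falls: Cldn8, Cldn11, Esrp2, Cdh1, F11r, Pard6b and Dsc2. With the scanner software's own processed signals, 9 members were called (22% of members, beside 18.5% of all genes), and with median centering 8 (19.5%, beside 12.6%). No called member changed sign in any of these settings. The deposited score table, rounded to 1 decimal, gave these 7 genes log2 ratios from -1.71 to -0.48 but called none of them (adjusted p from 0.0621 to 0.188, limma). With these scores the members' excess was absent, at 12.2% of members called beside 15.1% of all genes. Calls from the scores did not follow the size of the ratio: Cdh3 was called at 0.14 (adjusted p = 0.0474, limma), while Cldn8 at -1.71 was not. The part of the rounding in these counts was not tested.

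In claudins, 12 of 15 genes were tested: 4 fell, Cldn1 rose and 7 were not called, with a median log2 ratio of -0.10. Cldn8, a barrier-forming claudin of the distal nephron and collecting duct, gave processed signals of 19870 in control and 5311 with BIO on array 1, and of 20390 and 7371 on array 2. Both BIO values lie well under both control values. Genes described this way, here and below, were chosen by call and size, so the separation adds no support. Its log2 ratio was -1.72 (SE 0.15, n = 2 arrays, adjusted p = 9.62e-06, limma), a 3.295-fold fall, and it was the lowest of all members.

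Cldn11, known for the tight junctions of myelin sheaths and Sertoli cells, gave 5979 in control and 1999 with BIO on array 1, and 6243 and 2490 on array 2. Again the conditions do not overlap. The log2 ratio was -1.46 (SE 0.12, n = 2 arrays, adjusted p = 9.42e-06, limma), a 2.76-fold fall. The probe of Cldn8 lies at chr16:88561135-88561194 and that of Cldn11 at chr3:31062922-31062981, in the mm9 build that the scanner files use.

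The claudins that fell less were Cldn9, with a log2 ratio of -0.42 (adjusted p = 0.0265, limma), and Cldn23, with -0.38 (adjusted p = 0.0311, limma). Neither call held with processed signals or with median centering. The call of Cldn9 was also lost with an offset of 16 and without the filter on dim probes. Cldn1, a barrier claudin best known from the epidermis, rose by a log2 ratio of 0.48 (SE 0.13, n = 2 arrays, adjusted p = 0.0167, limma). Its signals were low, 98.5 in control and 192.6 with BIO on array 1, and 118.3 and 152.6 on array 2. Both BIO values are above both control values, but the call was lost with processed signals and with median centering, where the log2 ratio was still above 0.

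Claudins typical of many simple epithelia were among those not called. Cldn3 gave 7620 in control and 7145 with BIO on array 1, and 7757 and 7660 on array 2. Its log2 ratio was -0.08 with a 95% interval from -0.33 to 0.17. Cldn7 had a log2 ratio of -0.06 and Cldn4 of -0.12, the latter with opposite signs on the arrays. Cldn6, a claudin of embryonic epithelia, came closer, with a log2 ratio of -0.32 and an adjusted p of 0.0801 (limma). Cldn12, Cldn15 and Cldn19 had log2 ratios of -0.04, 0.10 and 0.06.

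The other 3 claudins could not be tested. Cldn2 and Cldn10 passed the background limit in a single channel, that of control RNA on array 1. Their processed signals were at the floor of 15 in every channel, so no fold is given. Cldn18 was not well above background in any channel.

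**Figure D2:**
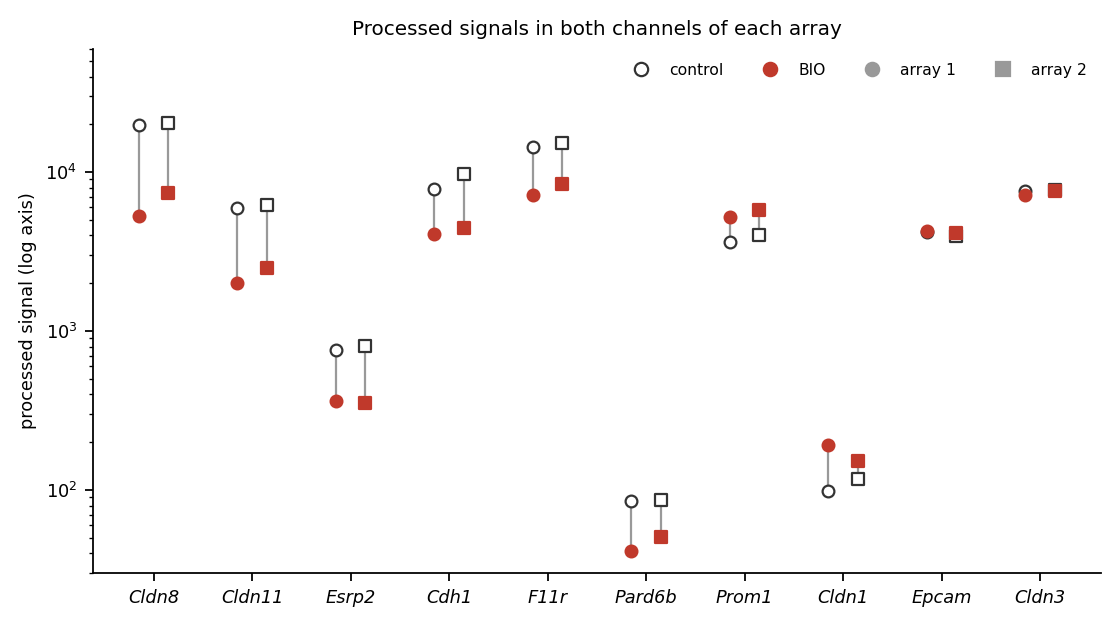
Processed signal (y axis, log scale) in control (open) and BIO (red) channels of array 1 (circles) and array 2 (squares) for the 6 members that fell by 1.5-fold or more, the 2 that rose, and Epcam and Cldn3, which were not called. Grey lines join the channels of 1 array: in the 6 genes on the left both red points lie below both open points, for instance 5311 and 7371 against 19870 and 20390 for Cldn8. These 6 were chosen by call and size, so this separation adds no support.

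Of the 7 other tight junction genes, all tested, 3 fell, 4 were not called and all had a log2 ratio below 0 (median -0.30). F11r encodes JAM-A, an immunoglobulin-like adhesion molecule that recruits polarity proteins to young contacts. Its probe lies at chr1:173393848-173393907 (mm9). It gave 14400 in control and 7221 with BIO on array 1, and 15270 and 8445 on array 2, so that the conditions did not overlap. The log2 ratio was -0.97 (SE 0.12, n = 2 arrays, adjusted p = 0.000171, limma), a 1.95-fold fall.

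Of the scaffolds that tie claudins to actin, Tjp1 (ZO-1) had a log2 ratio of -0.48 (adjusted p = 0.011, limma) and Tjp3 (ZO-3) of -0.47 (adjusted p = 0.0135, limma). Both calls, though not the sign of the ratios, were lost with processed signals (-0.42 and -0.45) and with median centering (-0.35 and -0.56). The strand proteins of the tricellular and bicellular junction were not called: Marveld2 (tricellulin) had -0.30 (adjusted p = 0.0787, limma), Marveld3 -0.15 and Ocln (occludin) -0.12. Occludin's signals were 1670 in control and 1590 with BIO on array 1, and 1671 and 1597 on array 2. The cytoplasmic plaque gene Cgn (cingulin) had -0.29 (adjusted p = 0.121, limma).

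Among the 5 cadherins and catenins, 2 fell and 3 were not called. Cdh1 encodes E-cadherin, the adhesion receptor of epithelial adherens junctions, and its probe lies at chr8:109193812-109193871 (mm9). Signals were 7817 in control and 4088 with BIO on array 1, and 9764 and 4486 on array 2. Every BIO value is far under every control value. The log2 ratio was -1.04 (SE 0.12, n = 2 arrays, adjusted p = 6.79e-05, limma), a 2.06-fold fall.

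Ctnna1 encodes α-catenin, the link from the cadherin complex to actin. It had a log2 ratio of -0.55 (SE 0.12, n = 2 arrays, adjusted p = 0.00513, limma), with 33530 in control and 24200 with BIO on array 1 and 36790 and 23990 on array 2. This call was lost with median centering, where the log2 ratio was -0.32. P-cadherin (Cdh3), whose gene lies beside Cdh1 on chromosome 8, was not called: its log2 ratio was 0.08 with a 95% interval from -0.17 to 0.34. The kidney cadherin Cdh16 had -0.22, and Ctnnd1 (p120-catenin, which holds cadherins at the surface) had -0.27.

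Of the 7 desmosome genes, 6 were tested, 3 fell and 3 were not called. The desmosomal cadherin Dsc2 had a log2 ratio of -0.55 (SE 0.12, n = 2 arrays, adjusted p = 0.00554, limma), with 1188 in control and 790.9 with BIO on array 1 and 1338 and 1005 on array 2. Dsp (desmoplakin, which binds keratin filaments) had -0.37 (adjusted p = 0.0339, limma), and it lost its call in 4 of the 6 scanner-based alternatives. A much dimmer Dsp probe gave -0.26 and was not called (adjusted p = 0.125 over all probes tested, limma). Jup (plakoglobin, the close relative of β-catenin) had -0.53 (adjusted p = 0.0281, limma), but its arrays differed more than those of any other called member, with -0.17 on array 1 and -0.89 on array 2. Its signals were low, 87.7 in control and 83.0 with BIO on array 1, and 121.4 and 53.9 on array 2. Jup, like Dsp, lost its call in 4 of the 6 alternatives.

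Plakophilins and the other desmosomal cadherin were not called. Pkp2 had a log2 ratio of 0.18, Pkp3 of -0.06 with opposite signs on the arrays, and Pkp1 was not well above background in any channel. Dsg2 had -0.29 by its brightest probe (adjusted p = 0.143, limma). A dimmer Dsg2 probe gave -0.59 with an adjusted p of 0.00615 over all probes tested (limma). The dimmest gave -0.16 and was not called (adjusted p = 0.375 over all probes tested, limma), so the probes of this gene disagree on the call. The mean of all Dsg2 probes gave -0.34 and was called (adjusted p = 0.0472, limma).

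The 6 polarity genes split evenly. Pard6b, an adaptor of the apical PAR complex, gave 85.2 in control and 41.6 with BIO on array 1, and 86.9 and 50.8 on array 2, low signals that do not overlap. Its log2 ratio was -0.69 (SE 0.12, n = 2 arrays, adjusted p = 0.0013, limma), and -0.91 with processed signals, to which no offset is added. Its probe lies at chr2:167912863-167912922 (mm9). Crb3 (Crumbs homolog of the apical membrane) and Llgl2 (its basolateral counterpart in the Scribble module) each had a log2 ratio of -0.37 (adjusted p = 0.0338 and 0.0339, limma). Both of these calls were lost under 3 alternatives, namely processed signals, median centering and the smaller offset. A slightly dimmer Crb3 probe gave -0.28 (adjusted p = 0.104 over all probes tested, limma), so the Crb3 probes disagree on the call.

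By contrast, the log2 ratios of Prkci, Pard3 and Patj were 0.04, 0.06 and 0.01. Prkci encodes the atypical protein kinase C that works with Pard6b, Pard3 the scaffold of the same complex, and Patj a scaffold of the Crumbs complex. All 4 probes of Pard3 lay between -0.14 and 0.11, and all 6 probes of Patj between 0.01 and 0.17. The signals of Prkci were 6722 in control and 7339 with BIO on array 1, and 7862 and 7975 on array 2.

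In the last role, Esrp2 fell and Prom1 rose. Esrp2, which with Esrp1 runs the epithelial programme of alternative splicing, gave 765.5 in control and 362.4 with BIO on array 1, and 804.9 and 354.9 on array 2. The conditions are far apart and the arrays nearly the same. The log2 ratio was -1.15 (SE 0.11, n = 2 arrays, adjusted p = 2.96e-05, limma), a 2.21-fold fall, and the probe lies at chr8:108655089-108655148 (mm9). Esrp1 had -0.27 by its brightest probe (adjusted p = 0.13, limma) and -0.44 by a dimmer probe (adjusted p = 0.0336 over all probes tested, limma).

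Prom1, a protein of apical membrane protrusions, gave 3629 in control and 5193 with BIO on array 1, and 4042 and 5791 on array 2. Its log2 ratio was 0.50 (SE 0.11, n = 2 arrays, adjusted p = 0.00752, limma), a 1.41-fold rise, and a second probe gave 0.48. The call was lost with median centering, where the adjusted p was 0.144. Epcam, the pan-epithelial surface protein, gave 4219 in control and 4299 with BIO on array 1, and 3974 and 4155 on array 2. Its log2 ratio of 0.02 had a 95% interval from -0.23 to 0.27. The recycling GTPase Rab25 had a log2 ratio of 0.07.

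Across the 23 members tested and not called, log2 ratios ran from -0.32 to 0.18, 14 below and 9 above 0. Their 95% intervals, not adjusted for the number of genes tested, reached 0.25 to 0.29 to either side of the ratio, and 19 of them held 0. The smallest change called among the members was 1.29-fold, and smaller changes may have been missed with 2 arrays. At an unadjusted p below 0.05, 22 members would count as changed, the added 4 being Cldn6, Cgn, Marveld2 and Esrp1. Of the 41 members tested, 6 had opposite signs on the arrays and none of these was called; over all genes tested, 72.9% had the same sign on both.

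**Figure D3:**
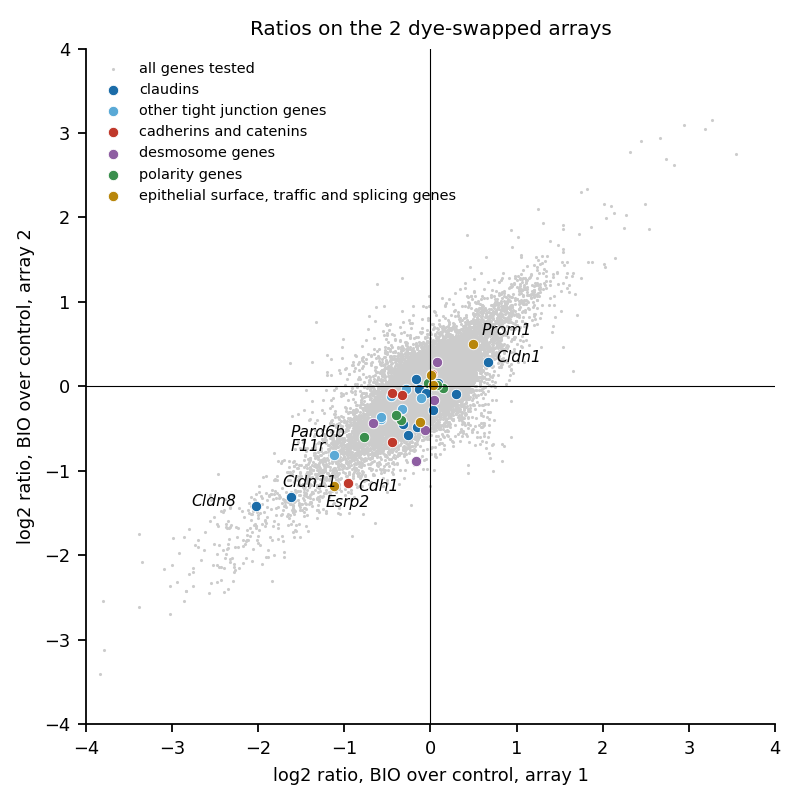
Log2 ratio of BIO over control on array 1 (x axis) and array 2 (y axis), for all 21574 genes tested (grey; 1 gene lies outside the axes) and for the 41 members (coloured by role). The members called at 1.5-fold or more lie along the diagonal in the lower left, and Cldn1 and Prom1 in the upper right.

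Pearson's r between the arrays was 0.86 and Spearman's rho 0.76 over the 41 members, as a description across genes that share the same libraries, and 0.81 and 0.69 over all genes tested. Under the study's own kind of rule, which asks for at least 2-fold the same way on both arrays and a brighter channel of at least 100, 3 members were lower with BIO (Cldn8, Cldn11 and Esrp2) and none was higher. Over all genes tested, 2.04% met the rule as lower and 1.04% as higher (3.08% in all). Cdh1 and Jup met it on array 2 alone, and F11r on neither, with a ratio just short of 2-fold on array 1.

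Neighbouring genes could be compared for 3 pairs whose probes lie within 100 kb. Cldn6 and Cldn9, 1.14 kb apart by their probes on chromosome 17, had log2 ratios of -0.32 and -0.42. Cldn3 and Cldn4, 41.1 kb apart on chromosome 5, had -0.08 and -0.12, and Marveld2 and Ocln, 97.7 kb apart on chromosome 13, had -0.30 and -0.12. The members of each pair differed by at most 0.25 on either array.

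Junction genes outside the set were mixed too. Of 71 further tight junction, adherens, desmosome and polarity genes and regulators of junction genes, 70 were on the array and 63 were tested. Of these, 20 fell and 4 rose (38.1% called), with a median log2 ratio of -0.11. Changes of at least 1 on the log2 scale were seen in 5 of them. The endothelial junction genes Cdh5 (VE-cadherin) and Cldn5 fell, with log2 ratios of -2.32 and -2.07. The regulators Ehf, an epithelial ETS factor, and Twist1, a mesenchymal bHLH factor, fell, with log2 ratios of -1.48 and -1.19. Grhl3, a grainyhead-like activator of epithelial barrier genes, rose by 1.05 (adjusted p = 5.3e-05, limma).

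Among the factors that repress epithelial junction genes, Zeb1 and Zeb2 each had a log2 ratio of -0.40 (adjusted p = 0.0236 and 0.0244, limma), while Snai1 and Snai2 had -0.06 and -0.004. Grhl2, the main grainyhead-like factor of tubular epithelia, had -0.16. Ctnnb1, which encodes β-catenin, fell by 0.63 on the log2 scale (adjusted p = 0.00247, limma). These 6 genes, though on the list, were picked out here after their values were seen.

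Cell type markers moved as well. Of 12 markers of ureteric epithelium, 8 fell and none rose (median log2 ratio -0.59), among them the keratins Krt7 (-1.74) and Krt19 (-1.24), while Emx2 had 0.03. The summed signal of these 12 was 75980 in control and 41760 with BIO on array 1, and 75760 and 51340 on array 2. Krt8 (28020 to 13850 and 27680 to 16940) and Krt18 (28780 to 14000 and 27680 to 17750) made up most of this sum and of its fall. Of 12 mesenchyme markers, 10 fell (median -0.67, from -2.17 for Pdgfrb to -0.16 for Foxf1). Foxf1, not called, had opposite signs on the arrays, with -0.80 on array 1 and 0.48 on array 2. The summed signal of the 12 went from 354500 to 214700 on array 1 and from 389500 to 238400 on array 2. All 8 endothelial markers fell (median -1.77), from a sum of 23970 to 4954 on array 1 and from 29070 to 8891 on array 2. Every marker of these 3 types was bright enough to test. The part of these shifts in the ratios of the junction genes was not tested.

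Markers of other cells that could be caught in the tissue were mixed. Of 7 nephron epithelium markers tested, 3 rose and 2 fell (median -0.14), led by Wnt4 at 1.26. Of 6 nephron progenitor markers, 2 fell, with the lowest log2 ratio -1.54 for Meox1, and of 4 mesothelium markers tested, 2 fell and 1 rose. Of 5 macrophage markers, 4 fell (median -0.64). The summed signal of the nephron epithelium markers went from 6019 in control to 9570 with BIO on array 1 and from 6414 to 9611 on array 2, and Wnt4 alone from 2651 to 6857 and from 2670 to 6272, which is more than the whole gain. The sum of the nephron progenitor markers went from 18890 to 18300 and from 19460 to 16270, and that of the mesothelium markers from 2715 to 2961 and from 2689 to 4587. In the mesothelium list, Wt1 alone went from 2156 to 2559 and from 2056 to 4031, again more than the whole gain. The sum of the macrophage markers went from 5315 to 3748 and from 5911 to 4954. The part of these markers in the ratios of the junction genes was not tested either.

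**Figure D4:**
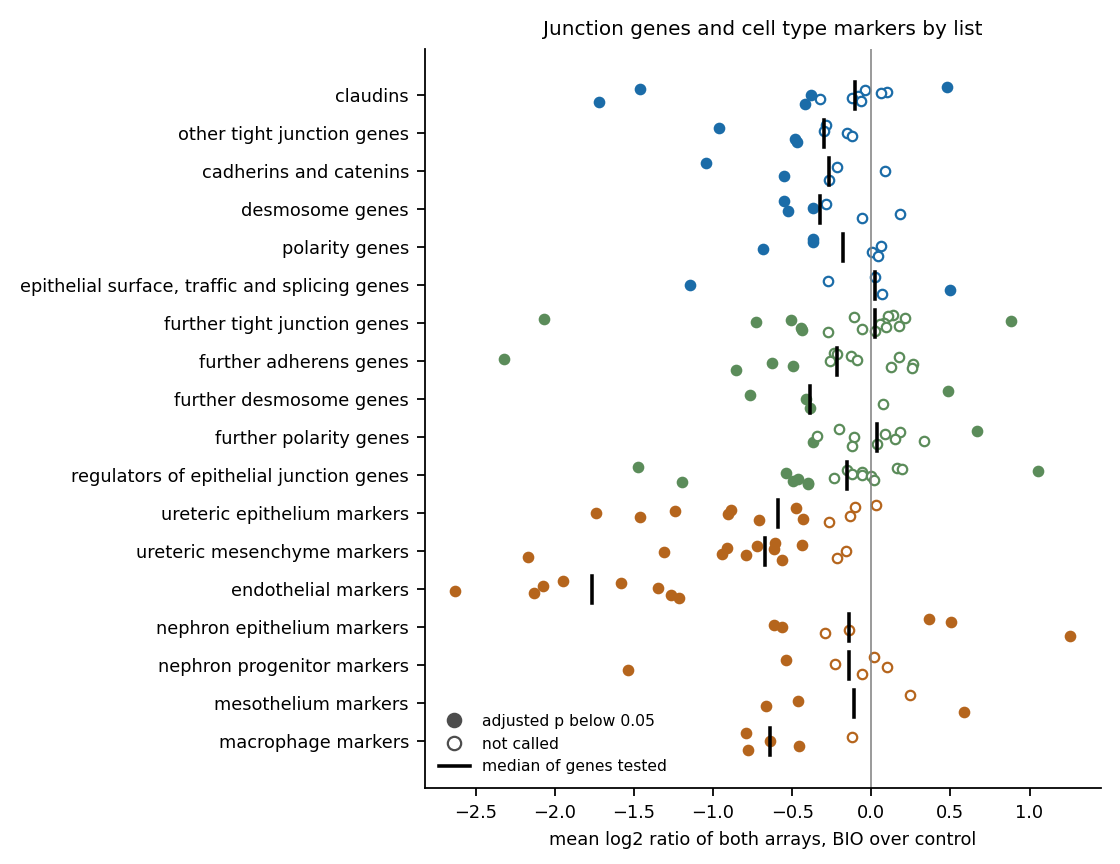
Mean log2 ratio of both arrays (x axis) for each gene tested in the 6 roles (blue), the further junction genes and regulators (green) and the cell type marker lists (brown), filled where adjusted p is below 0.05 in limma, with a black bar at the median of each list. The medians of the roles lie between -0.33 and 0.02, those of epithelial and mesenchymal markers at -0.59 and -0.67 and that of endothelial markers at -1.77.

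The promoters of the members were searched for 3 short motifs in RefSeq windows of the GRCm38.p6 build, from 250 bases before to 50 bases after each transcription start. Of the 45 genes, 29 had at least 1 window in the table. The motifs were the E-box CACCTG, bound by the SNAI and ZEB repressors, the TCF/LEF core CTTTGA and the grainyhead-like core CCGGTT, each read on both strands. They are shown here for 2 members that fell and 1 that was not called, picked after the values were seen, as the 250 bases before the start, 5′ to 3′ on the strand of the gene (all plus) with E-boxes in capitals (CACCTG, or CAGGTG where it reads on the other strand).
F11r, chr1:171437311-171437560: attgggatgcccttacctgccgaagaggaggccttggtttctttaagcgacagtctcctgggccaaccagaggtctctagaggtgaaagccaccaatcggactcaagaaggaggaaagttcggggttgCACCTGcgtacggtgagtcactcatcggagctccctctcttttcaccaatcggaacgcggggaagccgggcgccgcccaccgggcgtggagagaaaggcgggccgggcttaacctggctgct
Pard6b, chr2:168080754-168081003: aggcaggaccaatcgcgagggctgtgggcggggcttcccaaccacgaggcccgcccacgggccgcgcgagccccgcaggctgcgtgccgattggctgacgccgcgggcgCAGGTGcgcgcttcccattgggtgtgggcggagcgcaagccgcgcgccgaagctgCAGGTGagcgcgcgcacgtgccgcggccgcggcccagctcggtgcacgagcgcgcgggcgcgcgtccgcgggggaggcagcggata
Epcam, chr17:87635729-87635978: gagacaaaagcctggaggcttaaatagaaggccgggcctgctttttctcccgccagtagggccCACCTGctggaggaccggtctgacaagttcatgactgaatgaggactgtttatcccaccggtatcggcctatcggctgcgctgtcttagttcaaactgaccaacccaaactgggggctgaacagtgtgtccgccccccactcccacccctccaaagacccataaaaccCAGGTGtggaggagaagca

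F11r carries 1 E-box in this stretch, and Pard6b and Epcam carry 2 each. F11r and Pard6b fell, and Epcam had a log2 ratio of 0.02. Cldn11, Tjp1 and Jup, which also fell, held no E-box in their windows. Over all windows, 16 of the 29 members (55.2%) held the E-box in at least 1 window, beside 22.6% of the 27025 genes of the table. Among members with a window, the share was 5 of the 8 that fell and 10 of the 16 tested and not called, 62.5% each. The other members that fell, Cldn8, Esrp2 and Cdh1 among them, had no window, so their promoters were not searched. The TCF/LEF core was in 2 of 29 members (6.9%, beside 18.2% of all genes), namely Prom1, which rose, and Cldn18, which was not tested. The grainyhead-like core was in 4 of 29 (13.8%, beside 7.74%), of which 1 had fallen. The motifs are matches of letters only, and no binding was measured.

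**Figure D5:**
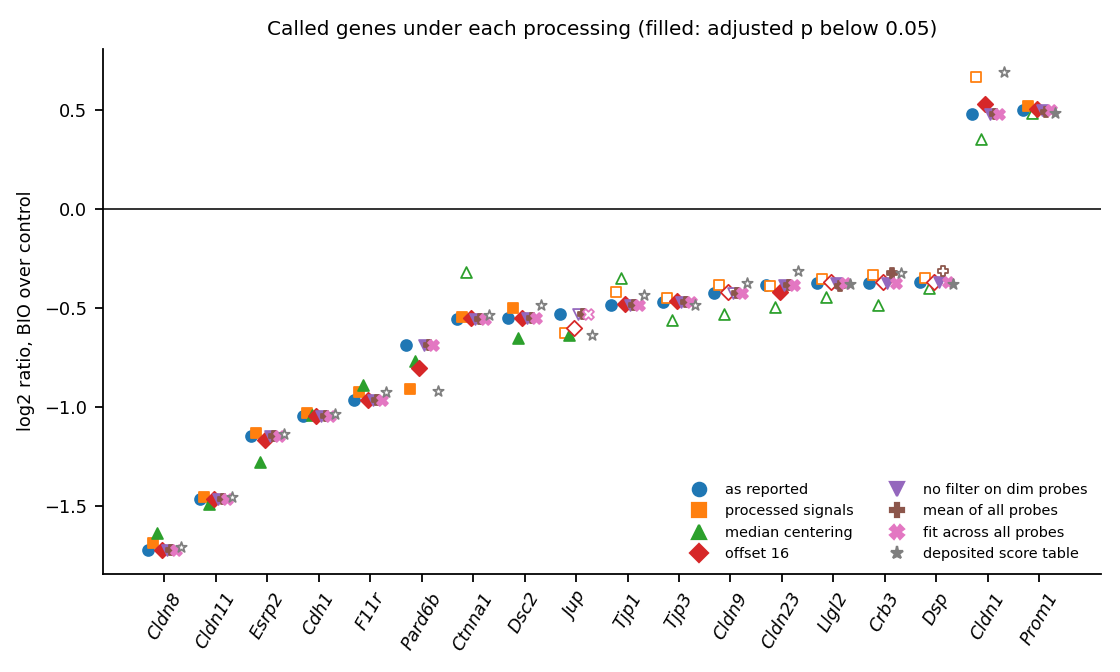
Log2 ratio of BIO over control (y axis) for the 18 called members (x axis) as reported and under 7 alternative settings, filled where adjusted p is below 0.05. Cldn8 to Pard6b, on the left, stay called in every setting based on the scanner intensities, while Cldn1, Prom1 and the smaller falls other than that of Dsc2 lose the call in at least 1 of them.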

How the data were processed

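Control and BIO RNA were hybridised together on each of 2 arrays, with dyes exchanged between them, and each array was taken as 1 replicate. The labels number the RNA of each array and the methods give 2 pools per condition, but neither states that the arrays held different extracts. Both arrays sat on 1 slide and share a scan. The authors quantified the scans with Agilent Feature Extraction 10.7.3.1, per the file headers, on a design in which each probe is spotted 4 times. The deposited mean and local background intensities are not normalized, and the deposited processed signals are background-subtracted and dye-normalized. The flags for outlier spots and for spots well above background come from the same files. The authors also deposited scores, 1 for every probe on every array, which carry 1 decimal and are never under 1 in size. Compared with the scanner values, a score behaves as a fold change with a sign (positive where BIO is higher), with a median difference of 0.05 from the processed log2 ratio on each array and a column median of 1. Its centering is unknown.

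Mean intensities were corrected by normexp with an offset of 50, ratios were normalized by loess within each array, control and outlier spots were left out, and the spots of a probe were averaged (limma 3.58.1, R 4.3.3). A gene was represented by its brightest probe and tested if over 0.5 of its spots were well above background in 1 condition on both arrays. Limma tested the 2 log2 ratios against 0, with Benjamini-Hochberg adjustment over the 21574 genes tested and a threshold of 0.05. Log2 ratios computed after the offset understate changes of dim genes. Signals quoted per channel are processed signals, with a floor of 15. They are not compared between genes, except that marker lists are summed, where the brightest genes weigh most. The number of arrays limits the precision. Names came from the scanner files, with 28328 of 39429 probes matched to RefSeq by accession, and promoter sequences came from RefSeq (GRCm38.p6).

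Every member is accounted for. Members with an adjusted p below 0.05 and a log2 size of at least 0.58 (1.5-fold) have both channels printed, other junction genes are named at a log2 size of at least 1, and further values serve as examples. The members and gene lists were chosen with earlier results of these data known. Alternatives were the processed signals, median centering, an offset of 16, no filter on dim probes, the mean of all probes of a gene, the score table, leaving out each array and other limits for the 2-fold rule. A fit across all 28824 probes tested was added after seeing the data. Probe positions are in mm9, and no genome of that build was used here, so exons and UTRs are not given.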

Additional observations from a re-analysis of the deposited data

How the results depend on the processing

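Median centering called 2713 genes and the deposited scores called 3249, against 5600 as reported. Among the members, processed signals called 9 (1 rose, 8 fell), median centering 8 (0 rose, 8 fell; 1 rise had an unadjusted p below 0.05 in limma) and the deposited scores called 5 (3 rose, 2 fell), against 18 (2 rose, 16 fell). Rises made up 38.8% of calls over all genes as reported and 59.4% with the scores; among member calls they made up 11.1% as reported, 0% after median centering and 60% for the scores, of whose 5 calls 3 were shared with those reported. Beside the share of all genes called, the share of members called was 12.2% against 15.1% with the scores, 22% against 18.5% with processed signals, 19.5% against 12.6% after median centering, 31.7% against 22.7% with an offset of 16, 35.6% against 16.2% without the filter, 43.9% against 26.2% with the mean of all probes and 41.5% against 23.9% in the fit across all probes. The excess of called members was thus absent with the scores. None of the 18 members called as reported changed sign in any setting. Median centering moved the median of all genes by -0.12 on array 1 and 0.06 on array 2. The cause of the lost calls was not tested. The median log2 ratio of the members lay between -0.30 and -0.22 under every alternative that used both arrays, and between -0.263 and -0.171 with 1 array left out. The rule of 2-fold on both arrays was met by 5 members at 1.5-fold (adding Cdh1 and F11r), by 0 at 3-fold, and by 3 to 5 with 1 array left out (Cdh1 and Jup without array 1). Counts of calls have no value with 1 array, since a single ratio leaves no spread to test. No paired analysis was possible because the 2 arrays form 1 group of ratios, each already a pair of control and BIO RNA.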
